A study of Mus musculus with 78 samples.

Results

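The opioid genes of this mouse brain series are the 7 genes that encode the precursors of the opioid peptides Penk, Pdyn and Pnoc and the receptors Oprm1, Oprd1, Oprk1 and Oprl1. They were taken by symbol from a fixed list of names, and all 7 of 7 are among the 55367 symbols of the deposited count tables. The tables hold 78 poly(A) RNA-seq libraries from 7 dissected brain regions of 12 mice. Of these mice 6 carried a constitutive CRISPR deletion in Acss2 (KO) and 6 were wild type (WT), with 3 of each sex in each genotype. In the labels the KO males are mice 1, 2 and 10 and the KO females mice 4, 5 and 6. The WT males are mice 3, 12 and 13 and the WT females mice 11, 23 and 24.

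Acss2 is the gene of acyl-CoA synthetase short-chain family member 2, which turns acetate into acetyl-CoA, and acetate forms when ethanol is metabolised. The deletion is present in all cells, spans exons 3 to 7, was made in C57BL6/J embryos and was backcrossed to that strain. All mice, KO and WT alike, were single-housed adults that had drunk 15% ethanol by volume in the drinking-in-the-dark model of binge-like intake. No library came from an ethanol-free mouse, so the levels below are those of drinking mice. Ventral and dorsal striatum and ventral and dorsal hippocampus had 6 KO and 6 WT libraries each. Amygdala and cortex had 6 KO and 5 WT libraries each, and prefrontal cortex had 4 KO (1 of them male) and 4 WT libraries.

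Opioid peptides are cut from larger precursor proteins. Proenkephalin (Penk) gives mainly Met- and Leu-enkephalin, prodynorphin (Pdyn) gives dynorphins and neoendorphins, and prepronociceptin (Pnoc) gives nociceptin. The receptors are G protein coupled and inhibitory. The mu receptor (Oprm1) and the delta receptor (Oprd1) bind enkephalins, the kappa receptor (Oprk1) binds dynorphins, and the nociceptin receptor (Oprl1) binds nociceptin. In the striatum enkephalin is classically a product of the projection neurons of the indirect pathway and dynorphin of those of the direct pathway. The opioid system has long been studied in alcohol intake, and blockers of opioid receptors are used to treat alcohol dependence.

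The relation between the precursors can be read in their coding DNA. The stretches shown start at a copy of the opioid core (the 4 codons at which an opioid peptide begins) and show what follows it in each precursor. They were read from GENCODE M21 transcripts on the GRCm38 build, are written 5′ to 3′ in the coding direction, and all lie on the minus strand. Capitals mark the core. Penk held 7 copies, of which 6 were followed by a methionine codon and 1 by a leucine codon. Pdyn held 3 copies, all followed by a leucine codon, and Pnoc held 1, whose first codon is one for phenylalanine where those of Penk and Pdyn code for tyrosine. Copy 6 of Penk has the same letters as the start of copy 2 of Pdyn, so what sets dynorphin A off from Leu-enkephalin comes after that stretch.
Penk copy 1, Met-enkephalin, chr4:4134334-4134348: TACGGAGGCTTCatg
Penk copy 4, the octapeptide form, chr4:4134064-4134087: TATGGGGGCTTCatgagaagcctc
Penk copy 6, Leu-enkephalin, chr4:4133941-4133955: TATGGGGGCTTCctg
Penk copy 7, the heptapeptide form, chr4:4133842-4133862: TACGGGGGCTTTatgcggttc
Pdyn copy 2, dynorphin A, chr2:129688094-129688144: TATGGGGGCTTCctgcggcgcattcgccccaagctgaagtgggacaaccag
Pdyn copy 3, the start of dynorphin B, chr2:129688037-129688087: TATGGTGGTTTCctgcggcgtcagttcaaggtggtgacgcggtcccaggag
Pnoc copy 1, nociceptin, chr14:65404842-65404892: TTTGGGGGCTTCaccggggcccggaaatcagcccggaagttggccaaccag
The lines of Pdyn and Pnoc each run over 17 codons, so that of copy 3 of Pdyn goes past the end of the peptide that starts there. Read counts per gene do not separate these copies, so each precursor has a single value per library.

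On GRCm38, Penk lies at chr4:4133531-4138819 and Oprd1 at chr4:132110726-132144486, both on the minus strand. Pdyn lies at chr2:129686565-129699844 (minus) and Oprl1 at chr2:181715016-181720985 (plus). Pnoc lies at chr14:65400673-65425472 (minus), Oprm1 at chr10:6758506-7038198 (plus) and Oprk1 at chr1:5588466-5606131 (plus). All 7 are annotated as protein coding. Penk shares 233 exonic bases (14.3% of its exonic length) with the opposite-strand transcript A830012C17Rik, which had 180 counts over all libraries. Oprm1 shares 96 bases (1.19%) with the opposite-strand gene Ipcef1, which had 21782 counts. Whether strand was used in counting is not given in the sources used here, so reads in these stretches cannot be told apart.

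Depth differed between sets of regions. Both striatal regions, the dorsal hippocampus and the amygdala gave 47 libraries with 4454420 to 14487778 counts each. The 31 libraries of cortex, prefrontal cortex and ventral hippocampus had 629635 to 1228828. A count of 3, taken as the floor, stood for 0.207 to 0.673 CPM (a gene's share of all counts in its library, times 1e+06) in the first set and for 2.44 to 4.76 CPM in the second. Library numbers restart between the sets, so region, depth and numbering cannot be told apart where a region of the first set is compared with one of the second. Acss2 separated the genotypes in every library, from 0.971 to 13.96 CPM in 40 KO and from 35.9 to 73.8 CPM in 38 WT libraries.

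Some libraries stood apart from their region in striatal tissue markers. Without them the means of Penk, Pdyn and Oprk1 were higher in both striatal regions and lower in amygdala, prefrontal cortex and ventral hippocampus. Those of Pnoc and Oprl1 were lower in both striatal regions and higher in the other 3, and those of Oprm1 and Oprd1 had no single direction. A striatal score was taken as the mean log2(CPM + 1) of 9 markers of striatal projection neurons, none of them an opioid gene. Libraries more than 2 log2 units from their region's median were set aside in an alternative chosen after the data were seen. These were the dorsal striatum of male KO mouse 10 (score 4.81) and of female WT mouse 23 (3.79), against 8.24 to 9.31 in the other 10 libraries, and the ventral striatum of male KO mouse 10 (6.04) and male WT mouse 13 (5.002). In the opposite direction stood the ventral hippocampus (8.20) and the amygdala (7.09) of female KO mouse 6 and the prefrontal cortex of female KO mouse 5 (7.33). In prefrontal cortex all 4 KO libraries, at 5.82 to 7.33, scored above all 4 WT libraries, at 3.77 to 4.64. In addition, the prefrontal library labelled female WT mouse 23 had no Xist count and 73.4 CPM of Ddx3y, as in male libraries, so it goes against its sex label.

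Penk, the enkephalin precursor, was the most abundant opioid transcript in the striatum. Its level was 1148 ± 593 CPM (SD, n = 12) in ventral striatum, with a lowest library of 149.6, a median of 1222 and a highest of 2077. It was 1115 ± 567 CPM (n = 12) in dorsal striatum, with 42.3, 1157 and 1792. The lowest dorsal values belonged to the libraries of female WT mouse 23 (42.3) and male KO mouse 10 (66.0), and the other 10 lay between 976 and 1792. The lowest ventral values were those of male WT mouse 13 (149.6) and male KO mouse 10 (299). Amygdala followed with 238 ± 256 CPM (n = 11, 30.97 to 863), then prefrontal cortex with 147 ± 95.8 (n = 8, 71.0 to 342). Ventral hippocampus had 85.6 ± 217 (n = 12), cortex 68.0 ± 33.6 (n = 11) and dorsal hippocampus 37.5 ± 9.82 (n = 12). The ventral hippocampal mean rested on female KO mouse 6, at 770 CPM, and without that library it was 23.3 ± 20.6 (n = 11), the lowest of the 7 regions.

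All regional differences were tested in 1 fit of edgeR's quasi-likelihood test over the 78 libraries and 15663 genes, with Benjamini-Hochberg adjustment over all genes. In bulk tissue fewer cells of a type and less RNA per cell cannot be told apart. Both parts of the striatum had more Penk than each of the other 5 regions. The smallest of these 10 log2 differences was 2.35 ± 0.50 (SE) for ventral striatum over amygdala (adjusted p = 7.1e-05), and the largest was 4.90 ± 0.54 for dorsal striatum over dorsal hippocampus (adjusted p = 3.5e-12). Ventral and dorsal striatum differed by -0.09 ± 0.46 (adjusted p = 0.94). In the same mice, the ventral value was higher in 8 of 12. Amygdala exceeded cortex by 1.69 ± 0.54 (adjusted p = 0.0084). In the order of means the neighbours from amygdala down to dorsal hippocampus did not differ past the threshold of 0.05. Without the libraries that stood apart, prefrontal cortex exceeded ventral hippocampus by 2.42 (adjusted p = 2.8e-06), and ventral hippocampus lay 1.67 below cortex (adjusted p = 4.0e-04), where it had been 0.05 above it with all libraries (adjusted p = 0.97). Cortex then exceeded dorsal hippocampus by 0.86 in Penk (adjusted p = 0.016, against 0.77 and 0.25 with all libraries). With the mouse as a block the prefrontal and ventral hippocampal difference in Penk also passed (adjusted p = 0.048, against 0.26 without the block).

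Pdyn, the dynorphin precursor, was highest in ventral striatum. It had 161 ± 93.8 CPM there (n = 12, lowest 21.4, median 183, highest 358) and 71.9 ± 25.5 in dorsal striatum (n = 12, lowest 23.6, median 78.8, highest 105). The 2 ranges overlapped, and 9 of 12 mice had the higher value in ventral striatum. The ventral excess was 1.06 ± 0.34 on the log2 scale (adjusted p = 0.029) and 1.14 without the libraries that stood apart (adjusted p = 0.0046). It missed the threshold when mouse 1, 3, 4 or 5 was left out (adjusted p = 0.079, 0.061, 0.064 and 0.075), and in WT libraries alone it was 0.51 ± 0.46 (adjusted p = 0.67). Amygdala had 43.9 ± 46.1 CPM (n = 11), with libraries from 3.59 to 143, and was 0.83 ± 0.36 below dorsal striatum (adjusted p = 0.044). That call was lost without mouse 1, 3, 4, 5, 10, 11, 12 or 13 (adjusted p up to 0.11).

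Outside the striatum Pdyn means were close to one another. They were 28.7 ± 17.3 CPM in prefrontal cortex (n = 8), 25.5 ± 11.05 in dorsal hippocampus (n = 12), 23.9 ± 8.64 in cortex (n = 11) and 19.05 ± 23.1 in ventral hippocampus (n = 12). No pair among these 4 regions and the amygdala passed the threshold for Pdyn. The nearest was amygdala over ventral hippocampus, at 1.17 ± 0.45 (adjusted p = 0.051). It passed when mouse 6, 10, 13 or 23 was left out (adjusted p = 0.027, 0.042, 0.034 and 0.048). In ventral hippocampus female KO mouse 6 had 88.2 CPM and the other 11 libraries averaged 12.8 ± 7.89.

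Pnoc, the nociceptin precursor, had another order. It was highest in amygdala, at 13.6 ± 5.77 CPM (n = 11, 6.84 to 23.7), and in dorsal hippocampus, at 9.84 ± 2.75 (n = 12, 6.02 to 13.5), which differed by 0.41 ± 0.29 on the log2 scale (adjusted p = 0.27). Ventral hippocampus had 7.88 ± 3.41 CPM, ventral striatum 5.97 ± 5.59, prefrontal cortex 5.93 ± 1.73, dorsal striatum 3.65 ± 2.96 and cortex 3.19 ± 2.65. Neighbours in this order did not differ past the threshold. Amygdala exceeded dorsal striatum by 1.87 ± 0.31 (adjusted p = 3.5e-07), ventral striatum by 1.24 ± 0.30 (adjusted p = 4.3e-04) and cortex by 2.10 ± 0.46 (adjusted p = 1.6e-04). In cortex 7 of 11 libraries held 3 counts of Pnoc or fewer. The amygdala excess over prefrontal cortex, 1.21 ± 0.43 (adjusted p = 0.036), missed the threshold with the mouse as a block (adjusted p = 0.051) and without mouse 3, 4, 11, 12 or 24 (0.063 to 0.088). Ventral striatal libraries of Pnoc ranged from 0.708 to 19.5 CPM, and the highest was that of male WT mouse 13, which stood apart by its low striatal score.

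**Figure D1:**
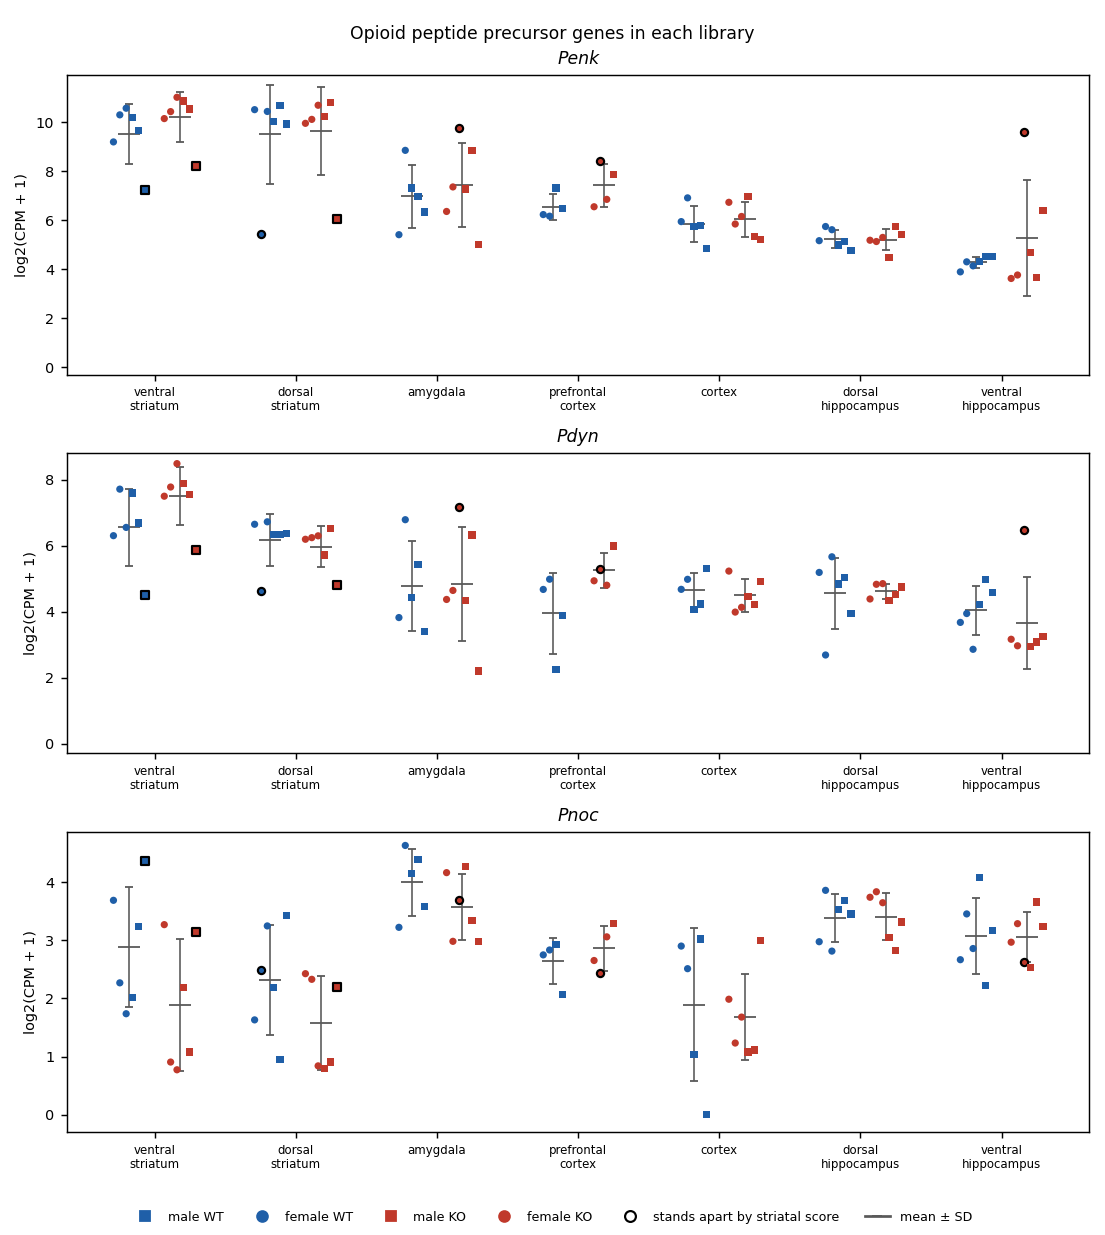
Each point is a library, at its log2(CPM + 1) for Penk, Pdyn and Pnoc, by region, with squares for males, circles for females, red for KO and blue for WT. Grey bars are the mean ± SD of a genotype in a region, and black outlines mark the libraries that stood apart by striatal score; most Penk values of both striatal regions lie above those of all other regions, and the outlined libraries lie toward the levels of other regions.

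Among the receptors, Oprl1 had the highest mean over all libraries in every region and Oprm1 the lowest. In dorsal hippocampus Oprm1 and Oprk1 both lay near the floor, and in KO libraries Oprk1 was the lower, at 0.628 against 0.813 CPM. Levels of different genes were compared as CPM per kilobase of exonic length in GENCODE M21. In ventral striatum mean Penk was 702 CPM per kilobase, Pdyn 55.7, Oprl1 18.1, Oprd1 5.18, Oprk1 4.23, Pnoc 2.77 and Oprm1 0.527. In amygdala the same quantity was 146 for Penk, 21.96 for Oprl1, 15.2 for Pdyn, 6.30 for Pnoc, 3.54 for Oprd1, 1.68 for Oprk1 and 0.264 for Oprm1. The exonic length joins all annotated isoforms and is long for Oprm1 (8037 bases) and Oprk1 (9151 bases), which lowers their values on this scale.

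Oprm1, the mu receptor, was highest in ventral striatum but rested on few counts. It had 4.24 ± 1.63 CPM there (n = 12, lowest 1.04, median 4.72, highest 6.09), from 6 to 34 counts a library. Prefrontal cortex had 2.25 ± 1.60 CPM (n = 8). The ventral striatal excess over it, 0.99 ± 0.48 on the log2 scale, did not pass the threshold (adjusted p = 0.093). Amygdala had 2.12 ± 0.765 CPM (n = 11) and dorsal striatum 1.55 ± 1.19 (n = 12). Ventral striatum exceeded dorsal striatum by 1.41 ± 0.32 on the log2 scale (adjusted p = 0.0013) and in 10 of 12 mice. It exceeded amygdala by 0.99 ± 0.32 (adjusted p = 0.0083) and dorsal hippocampus, at 0.649 ± 0.639 CPM, by 2.55 ± 0.35 (adjusted p = 3.0e-09). The dorsal comparison was 2.16 ± 0.41 in the female table alone (adjusted p = 0.0018) and 0.70 ± 0.46 in the male table alone (adjusted p = 0.50), and the difference between these values was not tested. In WT libraries alone it was 1.27 ± 0.41 (adjusted p = 0.099). Oprm1 was at or under the floor of 3 counts in all 11 cortex and all 12 ventral hippocampal libraries and in 6 of 8 prefrontal libraries, so its level there was not measurable at this depth. In dorsal hippocampus its median was 0.373 CPM, where the floor stood for 0.349 to 0.673 CPM.

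Oprd1, the delta receptor, was spread more evenly. Its means were 22.9 ± 5.74 CPM in dorsal striatum (n = 12, 14.5 to 33.6), 22.7 ± 8.07 in prefrontal cortex (n = 8, 14.1 to 38.7) and 20.8 ± 8.28 in ventral striatum (n = 12, 8.54 to 37.8). These 3 did not differ past the threshold. Cortex had 14.6 ± 3.76 and amygdala 14.2 ± 4.45 CPM (n = 11 each). Ventral hippocampus had 10.6 ± 5.99 and dorsal hippocampus 8.66 ± 2.52 (n = 12 each). Dorsal striatum exceeded dorsal hippocampus by 1.38 ± 0.19 on the log2 scale (adjusted p = 2.4e-09), amygdala by 0.73 ± 0.19 (adjusted p = 6.3e-04) and cortex by 0.66 ± 0.23 (adjusted p = 0.015). Prefrontal cortex exceeded ventral hippocampus by 1.07 ± 0.28 (adjusted p = 0.0033). Without the libraries that stood apart the ventral striatal excess of Oprd1 over cortex also passed (0.64, adjusted p = 0.012, against 0.48 and 0.082 with all libraries).

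Oprk1, the kappa receptor, had the widest regional range of the receptors, taken as the ratio of the highest to the lowest region mean. It ran from 38.7 ± 15.6 CPM in ventral striatum (n = 12, lowest 13.3, median 40.9, highest 62.1) to 20.9 ± 9.96 in dorsal striatum (n = 12, 6.68 to 44.6) and 15.4 ± 9.93 in amygdala (n = 11, 4.26 to 35.7). Prefrontal cortex had 8.05 ± 7.99, cortex 5.75 ± 4.64 and ventral hippocampus 4.41 ± 4.81. Dorsal hippocampus had 0.965 ± 1.15 CPM, with 6 of 12 libraries at or under the floor. Ventral striatum exceeded amygdala by 1.33 ± 0.30 on the log2 scale (adjusted p = 2.3e-04), and it exceeded dorsal hippocampus by 5.22 ± 0.40 (adjusted p = 1.4e-18). Its excess over dorsal striatum, 0.82 ± 0.29, just missed the threshold (adjusted p = 0.051). This excess in Oprk1 passed with the mouse as a block (adjusted p = 0.027), without the libraries that stood apart (0.80, adjusted p = 0.027), and without mouse 10, 12 or 24 (0.037, 0.028 and 0.032). Ventral hippocampus exceeded dorsal hippocampus by 2.11 ± 0.64 (adjusted p = 0.014), but by 1.60 without the libraries that stood apart (adjusted p = 0.078), where the library of female KO mouse 6 (17.6 CPM) is left out.

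Oprl1, the nociceptin receptor, was the most abundant receptor transcript and had the smallest ratio of highest to lowest region mean among the 4 receptors. It was highest in amygdala, at 82.4 ± 20.97 CPM (n = 11, 50.9 to 117), followed by ventral striatum at 68.1 ± 27.2 (n = 12, 38.4 to 134.6). The others lay between 38.6 ± 7.84 in dorsal hippocampus and 49.7 ± 13.7 in ventral hippocampus. Amygdala exceeded dorsal striatum by 1.00 ± 0.14 on the log2 scale (adjusted p = 4.2e-09), dorsal hippocampus by 1.03 ± 0.14 (adjusted p = 5.3e-09), cortex by 0.82 ± 0.16 (adjusted p = 2.3e-05) and prefrontal cortex by 0.79 ± 0.17 (adjusted p = 4.6e-04). Its excess over ventral striatum was 0.29 ± 0.14 (adjusted p = 0.078), and it passed with the mouse as a block (adjusted p = 0.048) and without the libraries that stood apart (0.39, adjusted p = 0.017). Ventral striatum exceeded dorsal striatum by 0.72 ± 0.14 (adjusted p = 1.1e-04), in 10 of 12 mice. The ventral striatal excess of Oprl1 over ventral hippocampus, 0.42 ± 0.15 (adjusted p = 0.016), was 0.27 without the libraries that stood apart (adjusted p = 0.14).

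**Figure D2:**
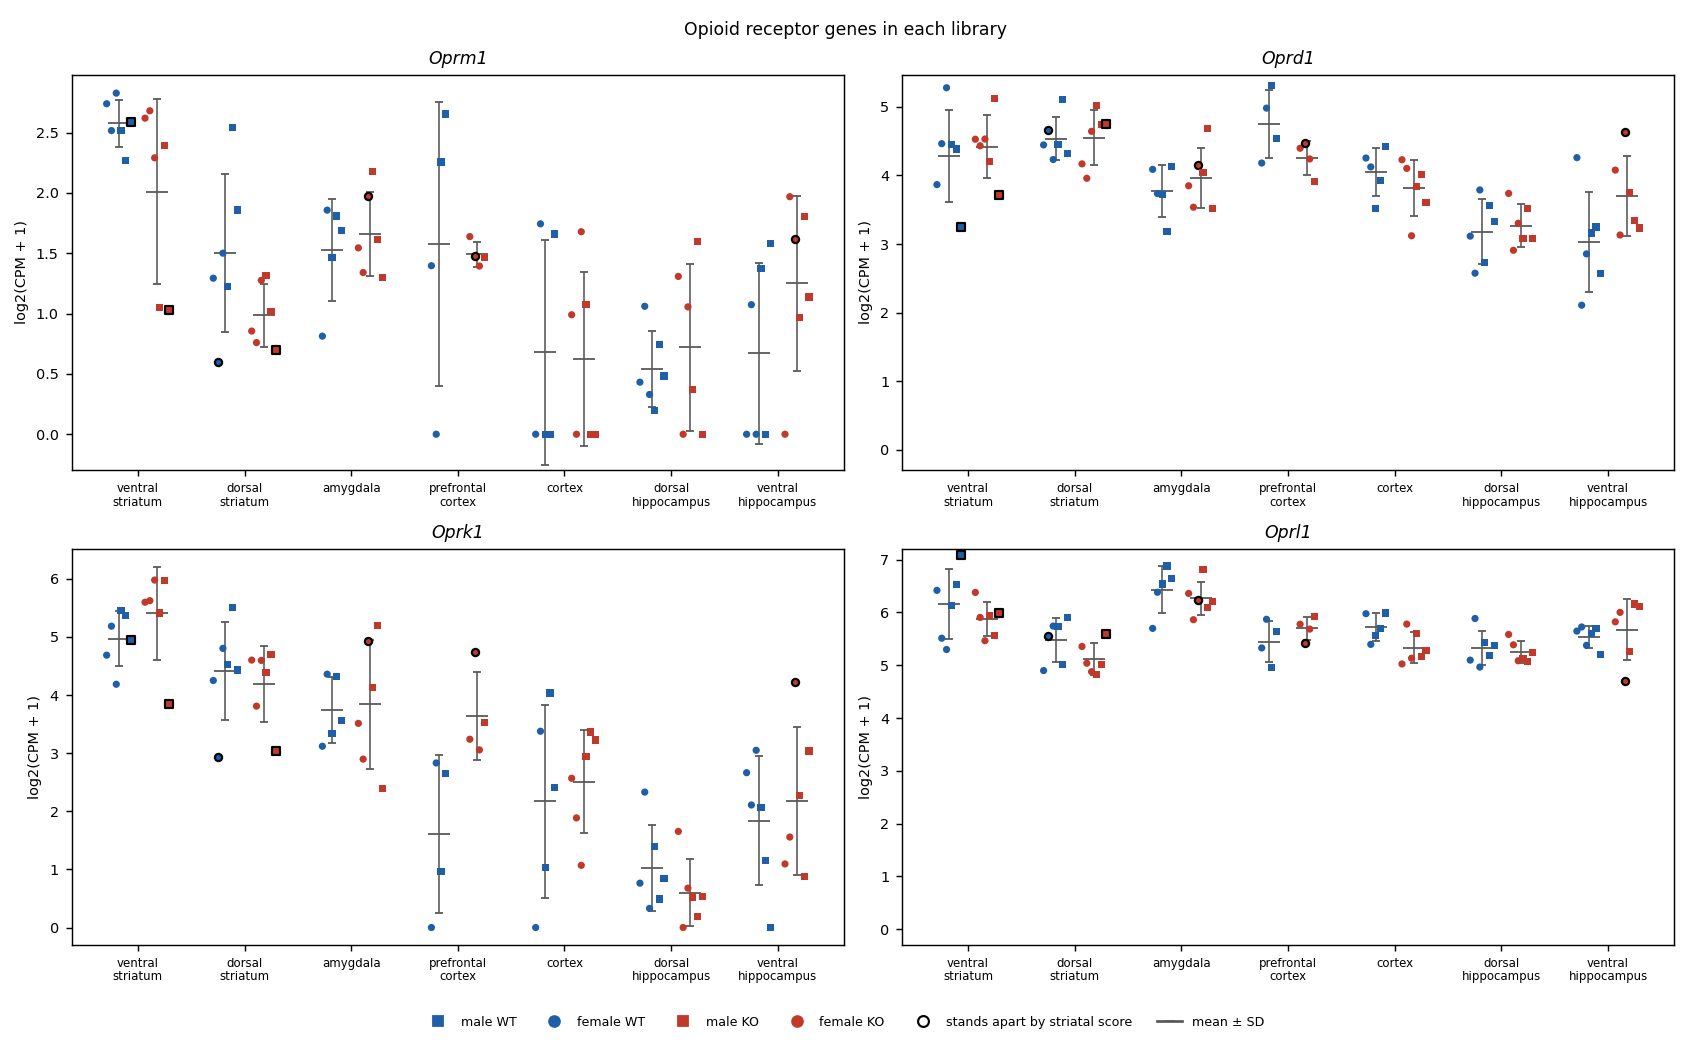
Each point is a library, at its log2(CPM + 1) for the 4 opioid receptor genes by region, with the symbols of the plot of precursors. Oprk1 goes from its highest values in ventral striatum to values near 0 in dorsal hippocampus, Oprl1 is highest in amygdala, and Oprm1 lies near or at 0 in many libraries of the shallow regions.

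Counted over the 21 pairs of regions, the 7 genes gave 78 calls in 147 tests, and these counts are read against the share of all genes called in the same pair. Ventral against dorsal striatum called 3 of 7 opioid genes (Pdyn, Oprm1 and Oprl1, all higher in ventral striatum), where 12.8% of all genes were called. Ventral striatum called 6 of 7 against amygdala (42.9% of all genes), 4 against prefrontal cortex (39.2%), 5 against cortex (53.4%), 7 against dorsal hippocampus (50.2%) and 6 against ventral hippocampus (47.3%). Dorsal striatum called 5 against amygdala (52.1%), 3 against prefrontal cortex (43.2%), 4 against cortex (51.2%), 6 against dorsal hippocampus (51.2%) and 5 against ventral hippocampus (47.7%). Amygdala called 3 against prefrontal cortex (20.8%), 4 against cortex (39.4%), 5 against dorsal hippocampus (36.1%) and 3 against ventral hippocampus (23%). Prefrontal cortex called 0 against cortex (30.2%), 4 against dorsal hippocampus (32.3%) and 1 against ventral hippocampus (23.6%), the latter being Oprd1. Cortex called 3 against dorsal hippocampus (41.4%) and 0 against ventral hippocampus (22.8%), and the hippocampal parts called 1 of 7, Oprk1 (17.1%). Oprm1 is among the calls of ventral striatum against cortex and against ventral hippocampus, and of prefrontal cortex against dorsal hippocampus. Its level in cortex, ventral hippocampus and prefrontal cortex was not measurable at this depth, so these calls of Oprm1 rest on values at or near the floor. The calls of Oprm1 in ventral striatum, dorsal striatum and amygdala against dorsal hippocampus also set a region whose median lay near the floor.

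By gene, the calls were spread as 15 of 21 pairs for Oprk1, 14 for Penk, 12 for Oprd1, 11 for Pdyn, 10 for Oprl1 and 8 each for Pnoc and Oprm1. In these pairs 12.8% to 53.4% of all genes were called, so a count for 1 gene cannot be read as particular to it. When each mouse was left out in turn, the pairs that passed every time were 13 for Oprk1, 12 for Penk, 10 for Oprd1, 9 for Pdyn, 8 for Oprl1, 7 for Oprm1 and 5 for Pnoc. The share of all genes that passed every time is not given here. The ventral against dorsal striatal count was 0 of 7 in WT libraries alone, where 1.72% of all genes were called, 1 in males alone (2.9%) and 1 in females alone (5.32%).

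Across all 78 libraries, Penk and Pdyn correlated with Pearson's r of 0.833 and Penk and Oprk1 with 0.811, on the log2(CPM + 1) scale. Pnoc had r of -0.337 with Penk, and Oprl1 had 0.00759. These are descriptions over libraries that share mice, regions and depth. The genes most like Penk among 11758 with a mean of at least 5 CPM were Gpr83 (r = 0.936), Adora2a (0.936) and Ric8b (0.932), and those most like Pdyn were Adora2a (0.851), Gnal (0.837) and Pde7b (0.822). The nearest to Oprk1 were 9330182L06Rik (0.877), Gnb4 (0.871) and Sesn3 (0.860), and to Oprl1 Resp18 (0.882), 6330403K07Rik (0.847) and Gprasp2 (0.843). Oprd1 was nearest to Dock3 (0.843), Arhgap32 (0.812) and Sik2 (0.808). Pnoc was nearest to Nrip2 (0.760), C530008M17Rik (0.723) and Calb2 (0.721), and Oprm1 to Pdxk (0.713), Lhfpl3 (0.700) and Fam120c (0.695). Adora2a, which encodes an adenosine receptor of striatal neurons, is also 1 of the 9 genes of the striatal score.

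**Figure D3:**
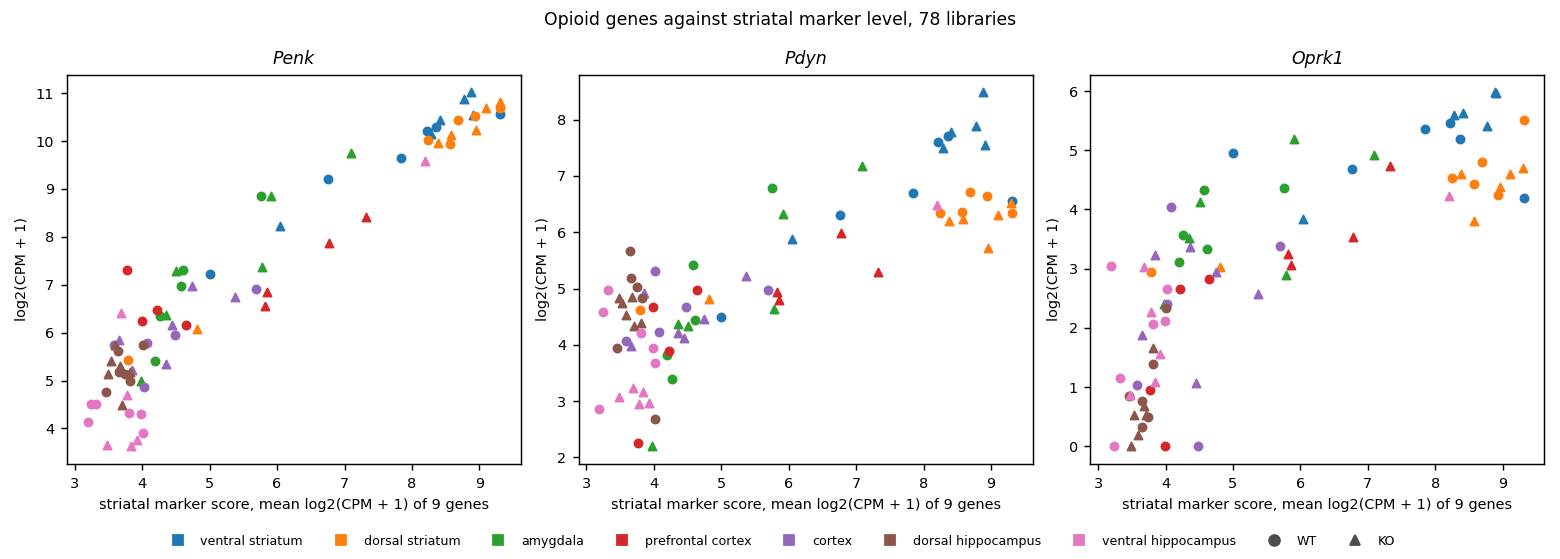
Each point is 1 of 78 libraries, with the striatal marker score on the horizontal axis and log2(CPM + 1) of Penk, Pdyn or Oprk1 on the vertical axis, colour for region, circles for WT and triangles for KO. The ventral hippocampal library at a score of 8.20 and the dorsal striatal libraries at 3.79 and 4.81 lie with the libraries of other regions in Penk.

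None of the 7 opioid genes differed between KO and WT past the threshold in any region, in the comparison averaged over the sexes. The comparison asks whether loss of Acss2 changed opioid expression in drinking mice. A filter on low counts left 40 of 49 gene and region combinations to test. Penk, Pdyn, Oprd1 and Oprl1 were tested in all 7 regions. Pnoc was not tested in cortex, prefrontal cortex and ventral hippocampus, Oprm1 was not tested in those and in dorsal hippocampus, and Oprk1 was not tested in cortex and ventral hippocampus. The count called was 0 of 7 in ventral striatum (0.00708% of all genes called), 0 of 7 in dorsal striatum (0.00689%), 0 of 7 in amygdala (0.00657%) and 0 of 6 in dorsal hippocampus (0.0069%). It was 0 of 5 in prefrontal cortex (0.042%), 0 of 4 in cortex (0.00947%) and 0 of 4 in ventral hippocampus (0.00929%). The single gene called in each region other than prefrontal cortex was Acss2. At an unadjusted p under 0.05 there were 6 of the 40 opioid results, of which 4 of 5 were in prefrontal cortex (7.58% of all genes at that level), 1 of 4 in cortex (7.41%) and 1 of 4 in ventral hippocampus (5.40%). In the other 4 regions there were 0, where 1.48% to 7.27% of all genes lay at that level. DESeq2's Wald test called none of the 39 combinations for which it gave an adjusted p, and it gave none for Penk in ventral hippocampus.

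**Figure D4:**
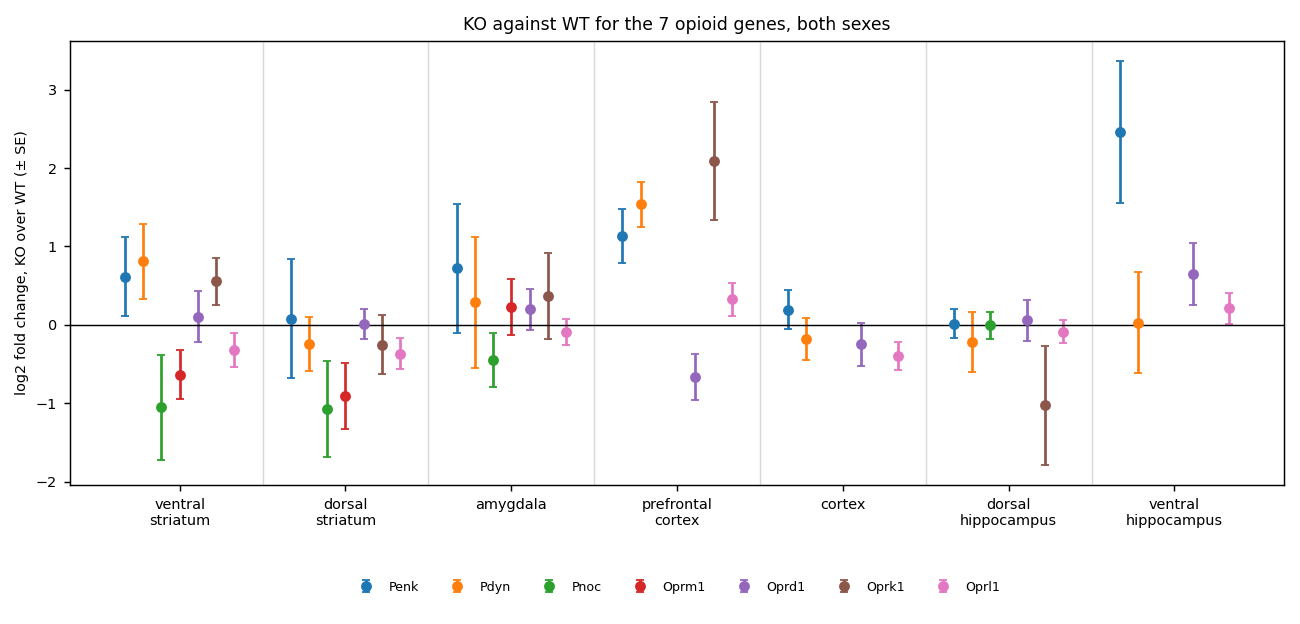
Points are log2 fold changes of KO over WT from edgeR, averaged over the sexes, with bars of ± 1 SE, for each opioid gene that passed the filter in each region. Most points lie within 1 or a few SE of 0, and the largest positive values are Penk in ventral hippocampus (2.46) and Oprk1 in prefrontal cortex (2.09).

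In ventral striatum the KO means of Penk, Pdyn and Oprk1 were higher and those of Pnoc and Oprm1 lower, and none of these differences passed the threshold. Penk was 299, 1137, 1385, 1494, 1870 and 2077 CPM in KO and 149.6, 587, 805, 1182, 1263 and 1524 CPM in WT. The ranges overlapped, and the lowest library of each genotype was one that stood apart. The difference was 0.62 ± 0.51 on the log2 scale (adjusted p = 0.71), and 0.15 ± 0.14 with the striatal score as a covariate (adjusted p = 0.82). Pdyn was 206 ± 97.0 CPM in KO and 116 ± 71.5 in WT (n = 6 each), a difference of 0.81 ± 0.48 (adjusted p = 0.66). Oprk1 was 45.8 ± 17.9 against 31.7 ± 9.70 CPM, or 0.56 ± 0.30 (adjusted p = 0.66). In females Oprk1 was 47.45, 48.3 and 62.1 CPM in KO and 17.2, 24.8 and 35.4 in WT, with no overlap, a difference of 1.01 ± 0.43 (adjusted p = 1.0). The share of all genes without overlap in groups this small is not given here, so such a gap cannot be read as particular to an opioid gene. In males the Oprk1 ranges overlapped, at a mean of 38.9 in KO and 37.7 CPM in WT, or 0.10 ± 0.43 (adjusted p = 0.94). Pnoc, the third precursor, went the other way, at 3.78 ± 3.59 in KO and 8.16 ± 6.66 CPM in WT, or -1.05 ± 0.67 (adjusted p = 0.67). The WT mean of Pnoc includes 19.5 CPM in male WT mouse 13, whose library stood apart.

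Oprm1 in ventral striatum was 1.04, 1.07, 3.89, 4.26, 5.14 and 5.41 CPM in KO and 3.83, 4.72, 4.72, 4.997, 5.67 and 6.09 in WT. The lowest KO values were those of male mice 10 and 1, and the ranges overlapped. The difference was -0.64 ± 0.31 (adjusted p = 0.66). In males it was -1.05 ± 0.46 (adjusted p = 0.49) and in females -0.22 ± 0.42 (adjusted p = 1.0). Oprl1 in males was 46.3, 60.3 and 62.8 CPM in KO and 69.1, 91.6 and 134.6 in WT, with no overlap, a difference of -0.78 ± 0.31 (adjusted p = 0.49). The highest of these WT values was that of mouse 13, and the KO libraries include that of mouse 10, and both stood apart. Outside prefrontal cortex KO also lay below WT without overlap for Pdyn in male ventral hippocampus, Pnoc in male dorsal hippocampus and Pnoc in female cortex. In females Oprl1 was 43.2, 58.98 and 82.3 CPM in KO and 38.4, 44.7 and 84.6 in WT, which overlapped, a difference of 0.13 ± 0.31 (adjusted p = 1.0). Oprd1 was nearly level, at 21.4 ± 7.20 CPM in KO and 20.3 ± 9.91 in WT.

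In dorsal striatum the KO and WT levels of Penk and Oprd1 were nearly equal. Penk was 1137 ± 612 CPM in KO and 1093 ± 575 in WT (n = 6 each), or 0.08 ± 0.76 on the log2 scale (adjusted p = 1.0), and 0.07 ± 0.21 without the libraries that stood apart. Oprd1 was 23.1 ± 6.27 against 22.7 ± 5.76 CPM, or 0.01 ± 0.19. Oprm1 was 1.01 ± 0.369 in KO and 2.10 ± 1.50 CPM in WT, or -0.91 ± 0.42 (adjusted p = 1.0), and Pnoc was 2.40 ± 1.77 against 4.90 ± 3.51 CPM. The median log2 difference of the 7 opioid genes was -0.25, where that of all 14523 genes tested was -0.0030. In ventral striatum these medians were 0.10 and 0.0011.

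Prefrontal cortex held the differences nearest to the threshold. Pdyn was 26.9, 29.6, 38.2 and 62.4 CPM in the KO libraries of mice 6, 4, 5 and 1, and 3.78, 13.8, 24.5 and 30.6 CPM in the WT libraries of mice 3, 12, 11 and 23. The ranges overlapped only through mouse 23, the library that goes against its sex label, and the lowest values were the male WT ones. The difference averaged over the sexes was 1.54 ± 0.28 on the log2 scale (adjusted p = 0.071 by edgeR). It was 2.87 ± 0.46 in males (adjusted p = 0.17), from 1 KO library, and 0.20 ± 0.33 in females (adjusted p = 0.96). The averaged values given next also rest on that lone male KO library for their male part. Without the library of mouse 23 the Pdyn difference was 1.60 ± 0.32 and passed (adjusted p = 0.025), in a fit that called 0.97% of all genes. Without male WT mouse 12 it was 2.10 ± 0.30 and passed (adjusted p = 0.0062), where 1.04% of all genes were called. Without female KO mouse 5, which stood apart, it was 1.44 ± 0.30 (adjusted p = 0.20). With the striatal score as a covariate it was 0.59 ± 0.67 (adjusted p = 1.0). That covariate fit called 0 of 11894 genes, so not Acss2 either. Its values here and below for Penk and Oprk1 cannot show whether a difference remains.

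Penk in prefrontal cortex was 92.9, 115, 235 and 342 CPM in KO and 71.0, 74.3, 87.9 and 159 in WT. The ranges overlapped with the sexes pooled. By labelled sex the KO libraries lay above the WT ones, in males (1 KO and 2 WT) and in females (3 KO and 2 WT). The share of all genes without overlap in this region is not given here, by sex or with the sexes pooled. The Penk difference was 1.14 ± 0.35 (adjusted p = 0.32). It was 0.71 without mouse 5 (adjusted p = 0.35) and -1.15 ± 0.65 with the striatal score as a covariate (adjusted p = 1.0). Oprk1 was 7.32, 8.45, 10.5 and 25.7 CPM in KO and 0, 0.944, 5.29 and 6.12 in WT, from at most 29 counts, with no overlap. Its difference was 2.09 ± 0.75 (adjusted p = 0.47), 4.36 ± 1.13 without the library of mouse 23 (adjusted p = 0.096) and -1.28 ± 1.35 with the score as a covariate (adjusted p = 1.0). Oprd1 went the other way, at 18.3 ± 3.18 in KO and 27.2 ± 9.48 CPM in WT (n = 4 each), or -0.67 ± 0.29 (adjusted p = 0.61).

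The striatal markers moved with these values in prefrontal cortex. All 9 were counted in every KO library and 7 of the 9 in every WT library. The score was 5.82, 5.85, 6.77 and 7.33 in KO mice 4, 6, 1 and 5, and 3.77, 3.99, 4.22 and 4.64 in WT mice 3, 11, 12 and 23. Penk, Pdyn and Oprk1 were highest in mice 5 and 1, the KO mice with the highest scores. The score of 8 oligodendrocyte markers ran higher in KO, at 7.08 to 9.20 against 6.46 to 7.45, but overlapped through KO mouse 1 (7.08) and WT mouse 23 (7.45). The score of 5 excitatory neuron markers also overlapped, at 6.86 to 7.64 in KO and 6.38 to 7.41 in WT. With the genotypes apart in the striatal score, genotype and striatal marker level cannot be told apart in this region.

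**Figure D5:**
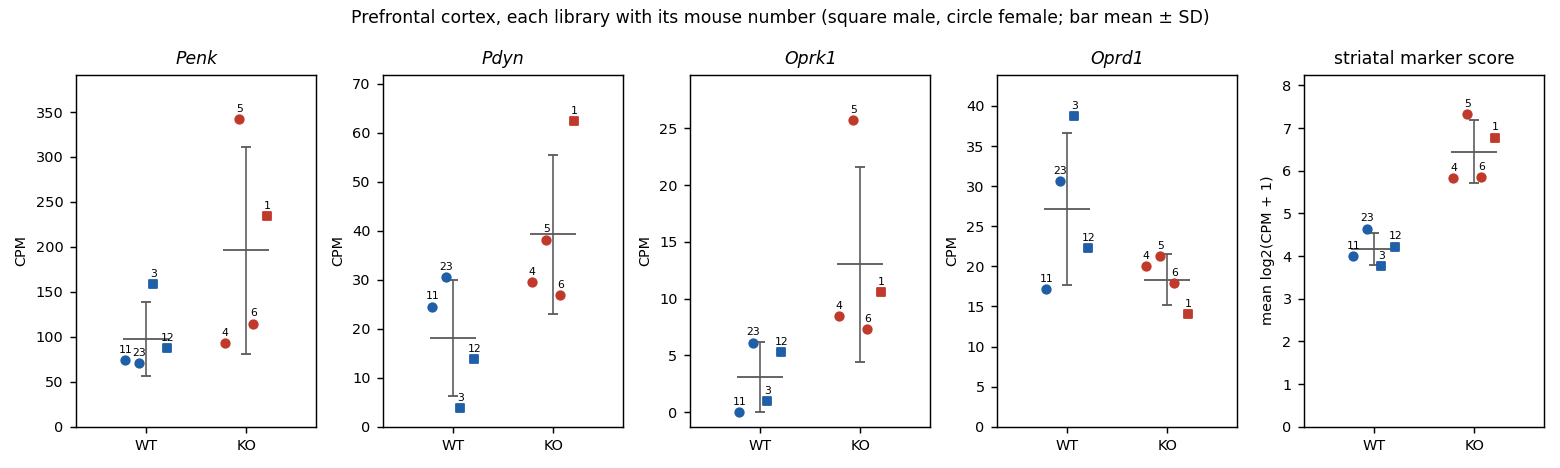
Points are the 8 prefrontal libraries with their mouse numbers, in CPM for Penk, Pdyn, Oprk1 and Oprd1 and as mean log2(CPM + 1) of 9 genes for the striatal marker score, with bars for the mean ± SD of each genotype. The KO and WT libraries do not overlap in the score or in Oprk1, and they overlap in Penk, Pdyn and Oprd1.

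In ventral hippocampus 1 library set the KO means. Penk was 11.3, 11.6, 12.6, 24.9, 84.0 and 770 CPM in KO and 13.9, 16.7, 18.8, 19.1, 21.8 and 21.9 in WT. The highest was female KO mouse 6, whose striatal score was 8.20 where the other 11 libraries lay between 3.19 and 4.01. The difference in Penk was 2.46 ± 0.91 on the log2 scale (adjusted p = 0.92) and 0.19 ± 0.43 without that library (adjusted p = 0.99). Pdyn was 6.72, 6.80, 7.46, 7.94, 8.40 and 88.2 CPM in KO and 6.24, 11.7, 14.4, 17.5, 22.8 and 30.4 in WT. Its difference was 0.03 ± 0.64 (adjusted p = 1.0), and without mouse 6 it was -1.11 ± 0.30 (adjusted p = 0.95). In that case 5 KO libraries lay below all WT libraries but that of female mouse 24.

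In amygdala the mice differed more than the genotypes. Penk ranged from 30.97 to 863 CPM in KO and from 41.6 to 462 in WT, and Pdyn from 3.59 to 143 and from 9.54 to 109. The highest KO value of both belonged to mouse 6, which stood apart, and the highest WT value of both to female mouse 24. The differences were 0.72 ± 0.83 for Penk and 0.29 ± 0.84 for Pdyn (adjusted p = 1.0 for both). Without mouse 6 they were -0.08 ± 0.74 and -0.47 ± 0.79. Pnoc was 11.6 ± 4.95 CPM in KO (n = 6) and 15.9 ± 6.32 in WT (n = 5), and Oprl1 77.6 ± 18.6 and 88.2 ± 24.3.

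Cortex and dorsal hippocampus showed small differences. In cortex Oprl1 was 31.6, 34.1, 34.9, 37.7, 47.7 and 53.9 CPM in KO and 41.1, 46.1, 50.9, 62.0 and 62.6 in WT, or -0.40 ± 0.17 on the log2 scale (adjusted p = 0.63), with overlap. Penk there was 72.1 ± 35.8 in KO and 63.1 ± 34.04 CPM in WT. In dorsal hippocampus Penk was 37.3 ± 10.3 and 37.8 ± 10.3 CPM (0.02 ± 0.18), Pdyn 23.7 ± 3.79 and 27.3 ± 15.7 CPM, and Pnoc 9.90 ± 2.90 and 9.79 ± 2.88 CPM (n = 6 each). Oprk1 there was at most 4.03 CPM, in female WT mouse 23, and its difference was -1.03 ± 0.76 (adjusted p = 1.0).

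Within each sex none of the 40 tests of an opioid gene passed, in males (0% to 0.00947% of all genes called, by region) or in females (0% to 0.269%). At an unadjusted p under 0.05 there were 5 in each sex, where 1.62% to 10.1% of all genes in males and 2.05% to 9.58% in females lay at that level, by region. The difference of the KO effect between females and males passed for 0 of 40 (0% of all genes called in every region), with 3 at an unadjusted p under 0.05 (1.33% to 6.63% of all genes). The smallest of these p-values was for Pdyn in prefrontal cortex, where the female effect was 2.67 ± 0.57 below the male one on the log2 scale (adjusted p = 1.0). The male group there holds 1 KO library, of 62.4 CPM, against WT libraries of 3.78 and 13.8 CPM. The female WT libraries there are those of mice 11 and 23, and that of mouse 23 goes against its sex label. Between females and males, 0 of 40 tests passed (0.0425% of all genes called in ventral striatum, 0.0482% in dorsal striatum, 0.0328% in amygdala, 0.0168% in prefrontal cortex, 0.0758% in cortex, 0.0414% in dorsal hippocampus and 0.0464% in ventral hippocampus), with 3 at an unadjusted p under 0.05 (2.85% to 16.8% of all genes). Penk in cortex did not pass this comparison with all libraries. It passed in just 1 alternative, without male KO mouse 1, with females 1.03 higher on the log2 scale (adjusted p = 0.037). The share of all genes called in that fit is not given here.

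The genes that make, clear and transmit opioid signals were read from a separate list of 27. It holds the fourth opioid precursor gene Pomc, processing enzymes and their partners such as Pcsk1, Pcsk2 and Cpe, peptidases such as Mme, inhibitory G protein subunits, arrestins, receptor kinases and RGS proteins. Between KO and WT, 0 of the 24 to 27 tested passed in 6 regions and 1 of 26 passed in prefrontal cortex, where 0.042% of all genes were called. That gene was Rgs9, a regulator of G protein signalling of striatal neurons and 1 of the 9 markers of the striatal score. Rgs9 was 54.5, 65.5, 106 and 148 CPM in KO and 8.16, 11.6, 22.03 and 24.5 in WT, or 2.60 ± 0.37 on the log2 scale (adjusted p = 0.019). In females alone the Rgs9 difference also passed, at 2.65 ± 0.49 (adjusted p = 0.039, 0.269% of all genes called). The female WT libraries of that comparison are those of mice 11 and 23, and that of mouse 23 goes against its sex label. In prefrontal cortex the median of the 26 genes tested was 0.085, where that of all genes was 0.0048. Pomc held few counts in these regions, with a highest mean of 2.14 ± 0.796 CPM in amygdala (n = 11), and was tested between genotypes in amygdala (-0.50 ± 0.27, adjusted p = 1.0) and dorsal hippocampus.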

How the data were processed

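Gene counts were made by the authors and are used as deposited, in 1 table for each sex. Per the submitters' processing notes, STAR 2.5.2a, SAMtools 1.1, HTSeq 0.6.1, R 4.0.2 and DESeq2 were among the tools, with GRCm38 (mm10) as the build. Per the labels, 300 ng of RNA went into a poly(A) library. CPM was computed by column total. Tests used edgeR 4.0.16 (quasi-likelihood, TMM, R 4.3.3) after filterByExpr with a minimum count of 10 and a minimum total of 15, with Benjamini-Hochberg adjustment over all genes tested and a threshold of 0.05. KO and WT were compared within each region over 4 groups of sex and genotype. Regions were compared in 1 fit over all libraries with sex and genotype as terms.

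The 7 genes and the lists were chosen with earlier results of these data known. Named were these 7, Acss2, genes of the pathway list past the threshold, Pomc, and for each of the 7 the 3 genes with the highest correlation. Rgs9 was named by that rule. Mouse numbers in the labels pair libraries of 1 animal. Deviations from group means correlated with a mean r of 0.0173 (-0.401 to 0.612) over 210 pairs of 1 mouse and -0.00796 over 423 pairs of different mice. Alternatives were other size factors, no low-count filter, DESeq2 1.42.0, subsets by genotype or sex, the mouse as a block and leaving out mice. Leaving out libraries that stood apart and the striatal score as a covariate were chosen after the data were seen. The tests were run on simulated data for ventral striatum, between genotypes and against dorsal striatum. These data held planted changes but no mouse effects, no libraries that stood apart and no other regional differences, so those conditions were not checked. The outcome is not given here.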

Additional observations from a re-analysis of the deposited data

Results flagged for a closer look

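In 8 of 98 sets of one gene in one genotype and region, the highest or lowest library was far from the others by Dixon's criterion, and chance flags about 1 in 20 such sets. Penk in the amygdala was 462 CPM in WT female mouse 24 and 41.6 to 159 CPM in the other 4 WT libraries. Penk in the ventral hippocampus was 770 CPM in KO female mouse 6 and 11.3 to 84.0 CPM in the other 5 KO libraries. Pdyn in that same library was 88.2 CPM, against 6.72 to 8.40 CPM. The striatal marker score of this library was 8.20, and its part in the result was not tested beyond the values given. Pdyn in the dorsal striatum was 23.6 CPM in WT female mouse 23, whose striatal score was 3.79, and 79.96 to 105 CPM in the other 5.

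The other 4 rest on few counts. Pnoc in the cortex was 6.98 CPM in KO male mouse 10, from 5 counts, against 1.11 to 2.96 CPM. Oprd1 in the ventral hippocampus was 18.2 CPM in WT female mouse 11, from 17 counts, against 3.31 to 8.502 CPM. Oprk1 in the dorsal hippocampus was 2.15 CPM in KO female mouse 4, from 16 counts, against 0 to 0.599 CPM. Oprk1 there was 4.03 CPM in WT female mouse 23, from 26 counts, against 0.256 to 1.63 CPM. This library of mouse 23 also had the highest dorsal hippocampal scores, as mean log2(CPM + 1), for markers of thalamus (6.99, others 3.09 to 6.22), choroid plexus (6.97, others 1.62 to 5.45) and oligodendrocytes (9.48, others 6.76 to 8.94), and the lowest for excitatory neurons (5.63, others 6.48 to 7.10) and dentate granule cells (4.41, others 5.61 to 7.48). Their part in the result was not tested.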

How the results depend on the processing

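Of 6541 single values under 26 alternative settings, 6093 stayed the same by the criteria used, 263 values not past the threshold moved by more than their spread, 121 lost and 64 gained the threshold, and 0 called values changed sign. Among values not past the threshold 393 changed sign. With the mouse as a replicate block the calls between regions were 80 instead of 78, of which 77 were shared, and the pairing changed no call other than those given above. The female table alone gave 46, from 39 libraries. For ventral against dorsal striatum that table called 5.32% of all genes, against 12.8% with all libraries. Shares of all genes are not given here for the other pairs in that table or for the fit with the block. Ventral against dorsal striatum called 3 of 7 genes, 0 in WT libraries only, 1 in the male and 1 in the female table, and 2 to 4 when each mouse was left out. The share of all genes is not given for these fits that leave out a mouse.

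Between KO and WT, prefrontal cortex called 0 opioid genes, 3 without the low-count filter, 1 without the library that goes against its sex label, and 0 to 1 when each mouse was left out. Without the filter, ventral hippocampus called 1, which was Penk, at 2.47 ± 0.18 on the log2 scale, against 2.46 ± 0.91 with the filter. Its KO mean there rested on female KO mouse 6, at 770 CPM. The unfiltered ventral hippocampal calls in females, in the sex difference of the KO effect and between the sexes were also of Penk or Pdyn. That library had the highest ventral hippocampal value of both genes. Over the 7 regions the unfiltered counts were 2 in males, 4 in females, 3 for the difference of the sexes in the KO effect and 1 between females and males. All were 0 with the filter, and the cause was not tested. The share of all genes called in these unfiltered contrasts is not given here, so the counts cannot be read as particular to opioid genes. Leaving out each mouse gave 0 to 1 in males and 0 to 1 between females and males, and the share of all genes is not given for these fits either. Without the filter prefrontal cortex called 304 of 23179 genes (1.31%) and ventral hippocampus 107 of 23674 (0.452%). Depth limits Oprm1, Oprk1 and Pnoc in the shallow regions, where many libraries held 3 counts or fewer.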
